A study of Arabidopsis thaliana with 12 samples.

Results

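The enzymes described here make and reduce oxylipins in Arabidopsis roots exposed to gold. They are LOX2, AOC1, AOC2, OPR1 and OPR2, chosen by their gene symbol in the 2 deposited tables and joined to their exons by transcript cluster. All 5 genes were found among the 800 listed gene features, and 17 of the 4977 listed exons belong to them. Of the 800 features 171 name no gene, and all 800 are counted below as listed genes. Col-0 seedlings, 12 days old, whose roots stood for 12 h in gold at 10 ppm and pH 4.2 (HAuCl4 in the study's methods, written HAuClO4 in the labels) were compared with seedlings of the same age kept for the same time in distilled water at pH 4.2. Both groups were without nutrient medium during this time, and each replicate pooled many seedlings. The distilled water of the controls is taken from the study's methods. In the labels the control arrays are titled Control Root, while the treatment protocol names gold for them too. RNA of whole roots was hybridized to 6 AraGene arrays, 3 per group, and each array was deposited as 2 of the 12 samples, once summarized by gene and once by exon. The tables hold 1 bi-weight average log2 signal per group, an average that gives outlying arrays less weight, and the single arrays were not used, so averages stand without an SD. All differences below are the gold average minus the control average on the log2 scale, and no test was run on them.

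Oxylipins are oxygenated derivatives of polyunsaturated fatty acids. In the plastid a 13-lipoxygenase adds oxygen to linolenic acid, allene oxide synthase turns the product into an unstable epoxide, and allene oxide cyclase closes the ring to give 12-oxo-phytodienoic acid (OPDA), a cyclopentenone. In the peroxisome OPR3 reduces the OPDA isomer used for jasmonate and beta-oxidation shortens it to jasmonic acid. OPR1 and OPR2 are relatives of OPR3 that reduce other unsaturated carbonyl compounds and act poorly on that isomer. Jasmonic acid is conjugated to isoleucine, and the conjugate is perceived by COI1 and the JAZ repressors.

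The first enzyme of the set was lower in gold-treated roots, while the cyclases and the reductases were higher. LOX2 averaged 2.45-fold lower, AOC1 2.38-fold and AOC2 2.11-fold higher, and OPR1 2.66-fold and OPR2 2.58-fold higher. Thus 4 of 5 members (80.0%) were higher in gold, beside 65.4% of all listed genes, and 1 was lower, beside 34.6%. At the exon level 14 of 17 exons (82.4%) were higher, beside 54.6% of all listed exons, and 3 were lower, beside 45.4%. With so few members these shares are a description only. The tables list only features past a 2-fold change and an unadjusted p-value criterion, so a difference in each member was given by the listing itself, and direction, size and the spread over exons are what the values add. In bulk roots, fewer cells of a type and less RNA per cell cannot be told apart.

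**Figure D1:**
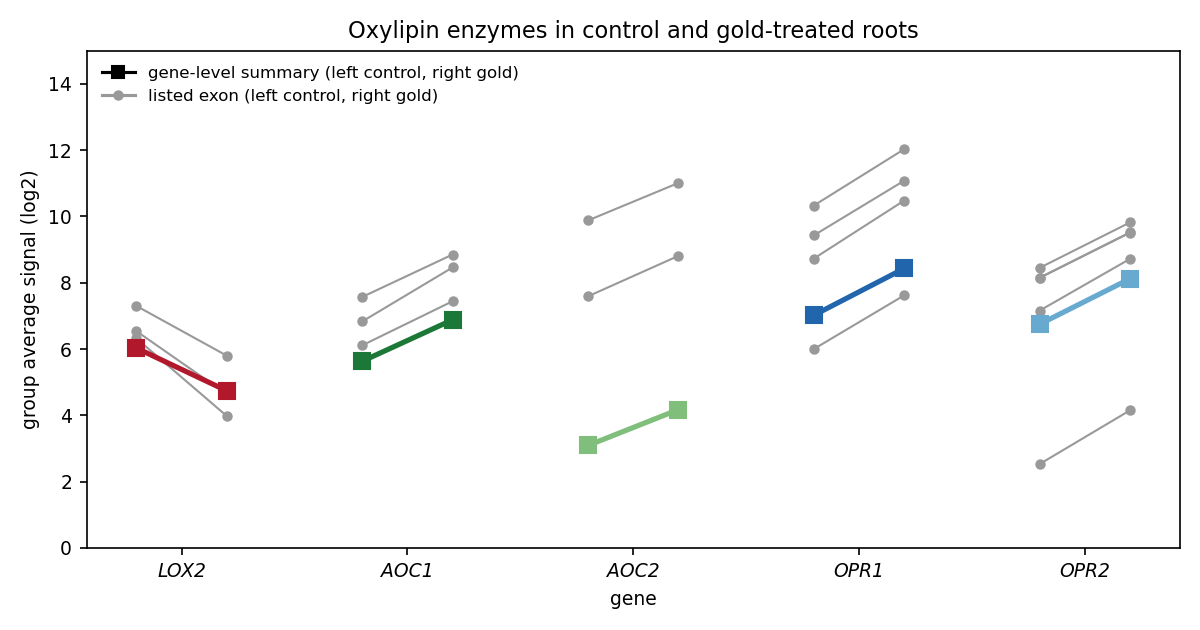
Group average log2 signal of each gene in control (left point) and gold-treated roots (right point), with the gene-level summary as coloured squares and listed exons as grey circles; each point is the authors' average over 3 arrays, without an error bar, and the 2 summaries were made separately. LOX2 slopes down in the gene-level summary and in all 3 listed exons, and the other 4 genes slope up in all of theirs.

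LOX2 (AT3G45140, chromosome 3) encodes a plastid 13-lipoxygenase known for the bulk of oxylipin formation in wounded leaves. At the gene level it averaged 6.03 in control and 4.74 in gold on the log2 scale, a difference of -1.29. Among the 277 listed genes that were lower in gold its difference ranked 108th, and 38.6% of them differed more. The median difference of these genes was -1.24. LOX2 therefore lay near the middle of the listed falls. Its listed exons all differed more than the gene-level summary, as in 145 (29.2%) of the 497 genes listed in both tables with at least 2 exons. The first listed exon averaged 7.3 in control and 5.8 in gold. The second averaged 6.32 and 3.98, and its difference of -2.34 was a 5.06-fold lower signal. The third averaged 6.54 and 4.64. All 3 differences lay between -2.34 and -1.5, and the exon that was brightest in control differed least. In gold-treated roots the gene-level average and all 3 exon averages of LOX2 were below 6 on the log2 scale, a range treated here as low.

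AOC1 and AOC2 encode allene oxide cyclases, the plastid enzymes that form OPDA. AOC1 (AT3G25760) and AOC2 (AT3G25770) lie next to each other on chromosome 3, and AOC3 is the next gene. Both listed cyclases were higher in gold, and their differences were 0.17 apart on the log2 scale. AOC1 averaged 5.63 in control and 6.88 in gold, a difference of 1.25. Its 3 listed exons averaged 6.11, 7.57 and 6.83 in control and 7.44, 8.85 and 8.46 in gold, so that every one of them was higher by 1.28 to 1.63. AOC1 was 331st by size among the 523 listed genes that were higher in gold, whose median difference was 1.39.

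AOC2 had the smallest gene-level difference of the 5 enzymes, 1.08, from 3.09 in control to 4.17 in gold. Of the listed rises 87.8% were larger. The 2 listed exons of AOC2 gave much higher signals than its gene-level summary. The first averaged 9.88 in control and 11.01 in gold, the second 7.59 and 8.81, with differences of 1.13 and 1.22. The dimmer of these exons was 4.5 above the gene-level average in control on the log2 scale, although gene and exon summaries were made separately. Of the 497 genes listed in both tables with at least 2 exons, 70 (14.1%) had a gene-level control signal below all their listed exons, and in only 1 of them was the gap wider than in AOC2. AOC1 and LOX2 showed gaps of 0.48 and 0.29. The level of AOC2 therefore depends on the summary, while its direction was the same in both. The cyclases are similar in sequence, and signal shared between their probes was not tested. Neither AOC3 nor AOC4 was listed in either table, so no value can be given for them.

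OPR1 (AT1G76680) and OPR2 (AT1G76690) are neighbours on chromosome 1, and their annotated spans overlap in the RefSeq annotation. The span of OPR2 also overlaps that of AT1G76700, the next gene, which was not listed at either level. OPR1 is known as a gene induced by OPDA and by xenobiotics. The differences of OPR1 and OPR2 were the highest of the 5 enzymes and were close to each other. OPR1 averaged 7.02 in control and 8.43 in gold, a difference of 1.41, and OPR2 averaged 6.75 and 8.12, a difference of 1.37. The differences were 0.04 apart, and no spread between arrays is at hand to set this against. By size they were 246th and 263rd of the 523 listed rises, near the median.

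The differences of the OPR1 exons were almost equal. In control roots the 4 listed exons averaged 9.43, 10.33, 8.73 and 6.0, a span of 4.33 on the log2 scale. In gold-treated roots they averaged 11.08, 12.03, 10.48 and 7.62. Their differences nevertheless spanned only 0.13, from 1.62 to 1.75. Among the 343 genes listed in both tables with at least 3 exons that all had the same direction, the median span of the differences was 0.65, and 8 genes (2.33%) had a narrower span than OPR1. Every listed exon of OPR1 was higher, by 3.07- to 3.36-fold, and by more than the gene-level summary, a pattern that 29.2% of the genes with at least 2 listed exons shared. Exons under a 2-fold difference are not listed, so the spans of all these genes leave them out.

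OPR2 had 5 listed exons, the most of the 5 enzymes. The first was low in both groups, 2.53 in control and 4.15 in gold, and was the only one of the 17 exons below 6 in both. The other four averaged 8.15, 8.45, 7.16 and 8.15 in control and 9.52, 9.82, 8.72 and 9.51 in gold. The differences lay between 1.36 and 1.62, and 12.5% of the genes compared had a narrower span than its 0.26. LOX2, with a span of 0.84, was wider than 63.6% of them, and AOC1, with 0.35, was wider than 22.2%. On listed exons alone, OPR1, OPR2 and AOC1 thus had narrower spans than most of the genes compared, and LOX2 did not. The genes compared were not matched by number of listed exons or size of difference, on which a span can depend. AOC2, whose 2 listed exons spanned 0.09, had too few exons for this comparison. OPR1 and OPR2 are similar in sequence and overlap, and OPR2 also overlaps AT1G76700. Signal shared between the probes of these genes was not tested.

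**Figure D2:**
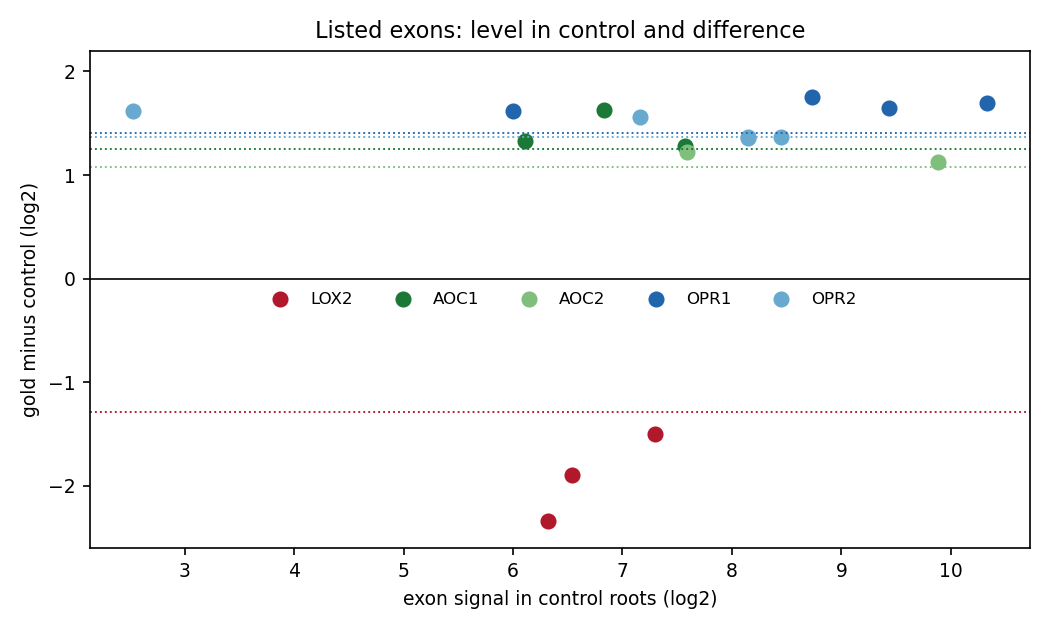
Difference between gold and control averages (log2) of each of the 17 listed exons against its log2 signal in control roots, coloured by gene; dotted lines mark the gene-level differences, and 2 exons of OPR2 at 8.15 fall on each other. The exons of OPR1 lie on a nearly flat line from 6.0 to 10.33, and those of LOX2 lie between -2.34 and -1.5.

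**Figure D3:**
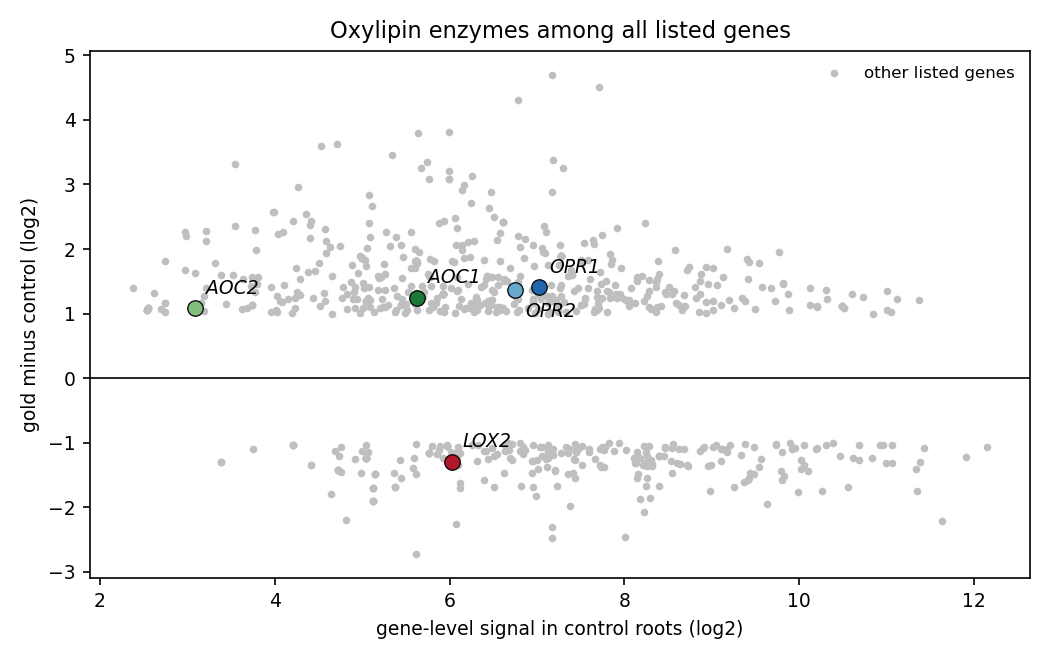
Gene-level difference (log2) against control signal (log2) for all 800 listed genes, with the 5 oxylipin enzymes in colour; the empty band around 0 is the 2-fold criterion of the listing. OPR1, OPR2 and LOX2 lie near the medians of 1.39 and -1.24, and AOC2 lies at the dim end close to the criterion.

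Among 20 other genes of oxylipin and jasmonate synthesis, 1 was listed at the gene level (5.0%), beside 2.3% of all RefSeq protein-coding genes. By exons alone 3 more were listed, which made 20.0% at either level, beside 9.71% of all. All 6 of their exons were higher in gold, beside 54.6% of all listed exons. DGL, a lipase that releases fatty acids in the plastid, averaged 7.24 in control and 8.3 in gold. LOX1, a 9-lipoxygenase outside the jasmonate branch, had 2 listed exons, bright in both groups, at 11.68 and 12.07 in control and 12.78 and 13.14 in gold. Their differences of 1.1 and 1.07 were opposite in direction to those of LOX2. JASSY (AT1G70480), a channel for OPDA export from the plastid, had 2 exons that were higher by 1.16 and 1.36. KAT2, a peroxisomal thiolase of beta-oxidation that the table names PKT3, had 1, higher by 1.3. The remaining 16 were not listed, AOS, OPR3 and the 13-lipoxygenases LOX3, LOX4 and LOX6 among them, and have no value here.

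Of 12 genes for enzymes that convert jasmonic acid further, 3 were listed at the gene level, beside 2.3% of all RefSeq protein-coding genes. By exons alone 2 more were listed, which made 41.7% at either level, beside 9.71% of all. The listed genes and their 12 exons were all higher in gold, beside 65.4% of all listed genes and 54.6% of all listed exons. The other 7 were not listed and have no value here. With a list this short these shares are a description only. JOX4 (AT2G38240), one of the oxidases that hydroxylate jasmonic acid, averaged 8.4 in control and 10.02 in gold, a difference of 1.62 that exceeded that of every oxylipin enzyme above. Its relative JOX3, named JRG21 in the table, averaged 9.72 and 10.92. ST2A, a sulfotransferase of hydroxyjasmonate, averaged 9.87 and 11.17. JOX2 (AT5G05600) was listed with 2 exons, higher by 1.05 and 2.15, and JAR1, which conjugates jasmonic acid to isoleucine, with 1, from 5.55 to 6.69.

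Of 17 receptor, repressor and transcription factor genes of jasmonate signalling, none was listed at the gene level. At either level 5.88% were listed, beside 9.71% of all RefSeq protein-coding genes. JAZ4, a repressor, had 1 listed exon, at 7.64 in control and 5.59 in gold. Of 4 textbook target genes none was listed at the gene level either, but VSP1 had 3 exons higher by 1.02 to 1.18 and VSP2 had 1 low exon, at 3.29 in control and 4.39 in gold. These proteins store nitrogen in leaves and rise with jasmonate. In all, 4 of the 53 other pathway genes (7.55%), which include LOX1 outside the jasmonate branch, were in the gene table. Of the 27562 protein-coding genes of the RefSeq annotation 2.3% were. In at least 1 table were 12 of the 53 (22.6%), beside 9.71% of the 27562. How many of either the array covers was not counted, and the list was drawn up with earlier results known, so these shares are a description. Of the exons 22 were higher and 1 lower, to be read beside the 54.6% of all listed exons that were higher.

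**Figure D4:**
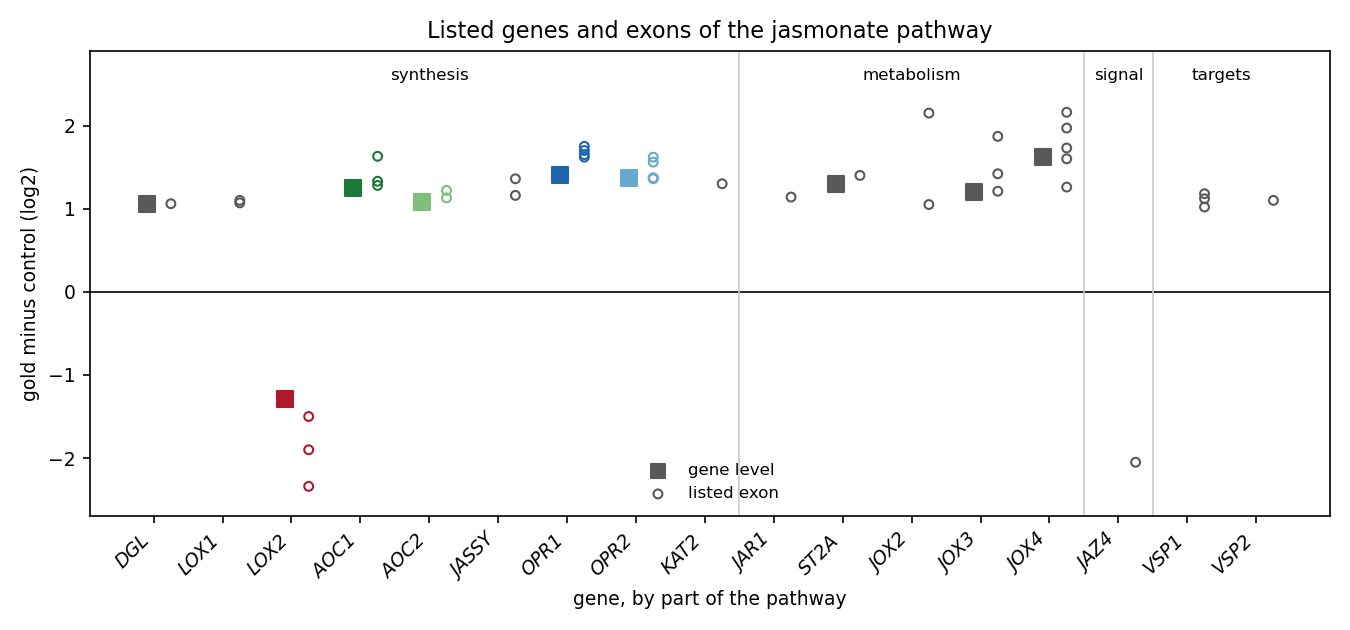
Gold minus control (log2) of every listed gene (squares) and exon (open circles) among the oxylipin and jasmonate genes, grouped by part. The 5 oxylipin enzymes are in colour and 12 other genes in grey, LOX1 outside the jasmonate branch included. Genes that were not listed are not drawn. LOX2 and the single exon of JAZ4 lie below 0, and all other points lie between 1.02 and 2.16.

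Since LOX2 is known mainly from leaves, markers of shoot tissue were looked up beside it. None of 16 photosynthesis genes was listed at the gene level, and 3 had 1 exon each, all higher in gold. These were LHCB2.1 from 2.88 to 3.88, RCA from 2.4 to 3.43, and an exon for LHCB3 from 5.52 to 7.13. The annotation of that last exon names both LHCB3 and ATM2, so its signal cannot be assigned to LHCB3 alone. The exons of LHCB2.1 and RCA were below 6 in both groups. The 13 photosynthesis genes that were not listed have no value here. Of 5 root hair genes LRX1 was listed as lower, as were 3 more by exons alone. CASP2 of 3 endodermis genes was lower, and none of 3 xylem genes was listed. At either level 18.8% of the photosynthesis, 80.0% of the root hair and 33.3% of the endodermis genes were listed, beside 9.71% of all RefSeq protein-coding genes. The share of all at the gene level was 2.3%. Of all listed exons 54.6% were higher and 45.4% lower. With lists this short these shares are a description only. LRX1 averaged 9.9 in control and 8.89 in gold, and CASP2 averaged 9.8 and 8.65. Their part in the values of LOX2 was not tested. The tables do not give the levels of markers that were not listed, so the makeup of the roots cannot be checked from them.

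By the distance over both group averages, the listed gene most like OPR2 was COL5, a CONSTANS-like zinc finger protein, which averaged 6.77 and 8.13 at a distance of 0.022 on the log2 scale. AT5G17960, a C1 domain gene, was nearest to LOX2 at 0.071, with 6.1 and 4.75. Nearest to AOC1 was AT4G01870 at 0.061, nearest to OPR1 was AT2G19310, an HSP20-like chaperone, at 0.108, and nearest to AOC2 was AT4G20970 at 0.117. The second nearest were AT3G12540 to LOX2, AT5G42530 to AOC1, AT2G14247 to OPR1, AT2G25625 to AOC2 and SCPL7 to OPR2, at 0.091 to 0.307. With 2 values per gene this likeness covers signal and difference only, and signals of different probes do not rank the transcripts.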

How the data were processed

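Before deposit, the authors summarized the array probes with RMA in Affymetrix Expression Console, per gene and per exon, and deposited 1 log2 signal per group, the bi-weight average of its 3 arrays. The groups were compared in the Transcriptome Analysis Console, unpaired, and only features over 2-fold with an unadjusted p-value under 0.05 were kept; the annotation is tair10. The 3 columns per table with the authors' own fold change, p-value and FDR were not used. The 2 averages were subtracted here, and a fold is 2 raised to that difference. Arrays have no sequencing depth; their number limits the precision. The single arrays were not used, and no test was run.

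The members and lists were chosen with earlier results of these data known. Lists were matched by locus, and all 53 pathway loci are in the RefSeq gene table of TAIR10.1, whose positions gave gene order and overlap and are not printed. The genes named are the members, every listed gene of the pathway lists, and the 2 listed genes naming 1 locus nearest to each member. Markers were listed too. Alternatives were exon medians or means, a change over 3-fold, a signal of at least 6 and matching by symbol. The subtraction was tested on simulated data. Python 3.11.15, numpy 2.4.6, pandas 2.3.3 and matplotlib 3.10.9 were used.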

Additional observations from a re-analysis of the deposited data

How the results depend on the processing

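No paired analysis was possible because the tables used give 1 average per group, and for the same reason no array could be left out. All 5 directions were the same under the median and the mean over listed exons. By median and mean the difference of LOX2 went to -1.9 and -1.91, that of AOC2 to 1.18 with both and that of OPR1 to 1.68 with both, each farther from the gene-level value than 1 SD over the exons; AOC1 and OPR2 stayed within it. Part of this follows from the listing, since exons under 2-fold are left out. Over 3-fold, 0 members were left at the gene level, while 6 of the 8 exons left were higher in gold, beside 68.9% of all exons over 3-fold (82.6% of genes). With a signal of at least 6, which dropped AOC2 at the gene level, 3 of 4 members and 13 of 16 exons were higher, beside 69.3% of all such genes and 56.5% of exons. By symbol, 7 of the other pathway genes were found, since the tables give some under other names.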
